A study of Mus musculus with 8 samples.

Results

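Genes that carry fatty acids through the cell, from uptake to storage and oxidation, were followed in mouse testes after valine, an amino acid with a branched side chain, and in control testes. The genes are 52 enzymes, carriers, binding proteins, droplet proteins and 1 regulator, taken by name from a gene table of 55414 Ensembl genes. All 52 were matched to 1 row each by symbol. The labels give 4 valine samples and 4 control samples of whole testis, each from total RNA of frozen tissue sequenced after an Illumina TruSeq preparation. Strain, age, dose, route and length of treatment are not given in the sources used here, nor is whether each sample is a separate animal. The p-values thus rest on the spread among these samples alone, and that spread may be technical.

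Fatty acids reach a cell from blood lipids cut by lipases at the vessel wall, cross the membrane with the help of carriers such as CD36, and are held in the cytosol by fatty acid binding proteins. Acyl-CoA synthetases activate them. They can then be lengthened, desaturated, stored as triglyceride in droplets, or burned in mitochondria and peroxisomes. The testis is rich in long polyunsaturated fatty acids, which sperm membranes need, and its Leydig cells hold lipid from which they draw the substrate of steroid hormones.

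Expression was given as FPKM, a count of fragments scaled to gene length and library size, so levels of different genes can be set side by side per length. FPKM totals were 1027662 to 1070524 in the valine samples and 944659 to 974626 in the control samples. Low values stood in whole-number steps, which gave depths of 0.866 to 0.992 in the valine samples and 0.870 to 1.00 in the control samples, relative to control replicate 1; the absolute depth is unknown. Markers of haploid germ cells, such as Prm1 and Tnp1, were abundant in all 8 samples, as the tissue label says. The 8 Leydig markers were also detected in all of them. In whole tissue, fewer cells of a type and less RNA per cell cannot be told apart.

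Promoter sequences were at hand for 38 of the 52 genes, with 47 start sites, in RefSeq's GRCm38.p6 tables. The 100 bases before the start are shown for 4 genes that were lower in valine testes, 1 each for membrane uptake, cytosolic binding, desaturation and elongation. Capitals mark a GC box (GGGCGG, or its complement) or a CCAAT box on either strand. The positions are chr5:17835897-17835996 (minus strand) for Cd36, chr4:130308638-130308737 (plus strand) for Fabp3, chr19:10101504-10101603 (minus strand) for Fads2 and chr9:77917265-77917364 (plus strand) for Elovl5, and each sequence reads 5′ to 3′ along the gene.
Cd36: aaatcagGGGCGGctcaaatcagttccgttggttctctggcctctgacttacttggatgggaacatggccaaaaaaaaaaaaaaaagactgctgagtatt
Fabp3: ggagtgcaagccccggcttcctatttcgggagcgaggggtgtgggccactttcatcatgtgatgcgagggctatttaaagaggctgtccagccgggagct
Fads2: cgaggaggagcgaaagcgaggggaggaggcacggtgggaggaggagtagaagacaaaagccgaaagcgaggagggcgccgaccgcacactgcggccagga
Elovl5: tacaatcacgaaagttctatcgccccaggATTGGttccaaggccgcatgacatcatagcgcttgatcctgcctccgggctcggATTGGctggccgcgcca

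Over windows of 250 bases before to 50 after the start, both strands read, a GC box was in 32 of the 47 promoters of the fatty acid genes and in 35.7% of all 32851 promoters. A CCAAT box was in 21 of the 47 and in 37.4% of all. The site of NR5A1, the Leydig and adrenal factor, searched as CAAGGTCA, was in 1 of the 47, at Acsl6, and in 1.56% of all. The sterol response element TCACCCCAC was in 1 of the 47, at Acsl1, and in 0.551% of all. The site of PPAR with RXR, searched as AGGTCA repeated after 1 base, was in 0 of the 47 and in 0.0396% of all. None of these last 3 strings was in the window of the 15 genes with a promoter that were lower in valine testes. Strings this rare among all promoters would seldom be met in 15 genes, so their absence shows little. Scd1, Scd2 and Fads1, also lower, had no promoter sequence at hand.

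The comparison asked how valine changed these transcripts. Among the 52 genes, desaturases, the receptor CD36, the binding protein FABP3 and enzymes of mitochondrial β-oxidation fell. The 4 acyl-CoA synthetases and the abundant triglyceride storage genes of this list did not pass the test. Of the 52 genes, 50 had a mean of at least 1 FPKM and were tested; 20 fell and 1 rose (limma on log2(FPKM + 1), Benjamini-Hochberg adjusted p below 0.05 over 22077 tested genes). Over all tested genes, 4.41% fell and 4.32% rose. The median change of the 50 genes was -0.41 on the log2 scale, against 0.02 for all tested genes. Valine and control samples did not overlap, with valine below, for 27 of the 50, against 9.39% of all tested genes. The genes were chosen with earlier results of these data known, so these comparisons with all tested genes are not an independent test. The 2 genes under the filter were Lpl and Acot1. On the log2(FPKM + 1) scale used throughout, changes of low genes are understated.

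How many genes were called depended on scaling and on single libraries. With each sample rescaled to the same total, which shifted the all-gene median by -0.10, 26 of the 50 genes were lower and 1 higher, against 2022 lower (9.16%) and 363 higher among all tested genes. As deposited, all tested genes had 974 lower and 954 higher; with quantile normalisation they had 1029 lower and 398 higher. Without control replicate 1, 12 of the 50 genes were lower, against 461 (2.09%) of all tested genes. In every alternative that tested them, 12 lower genes and the 1 higher gene kept their call.

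**Figure D1:**
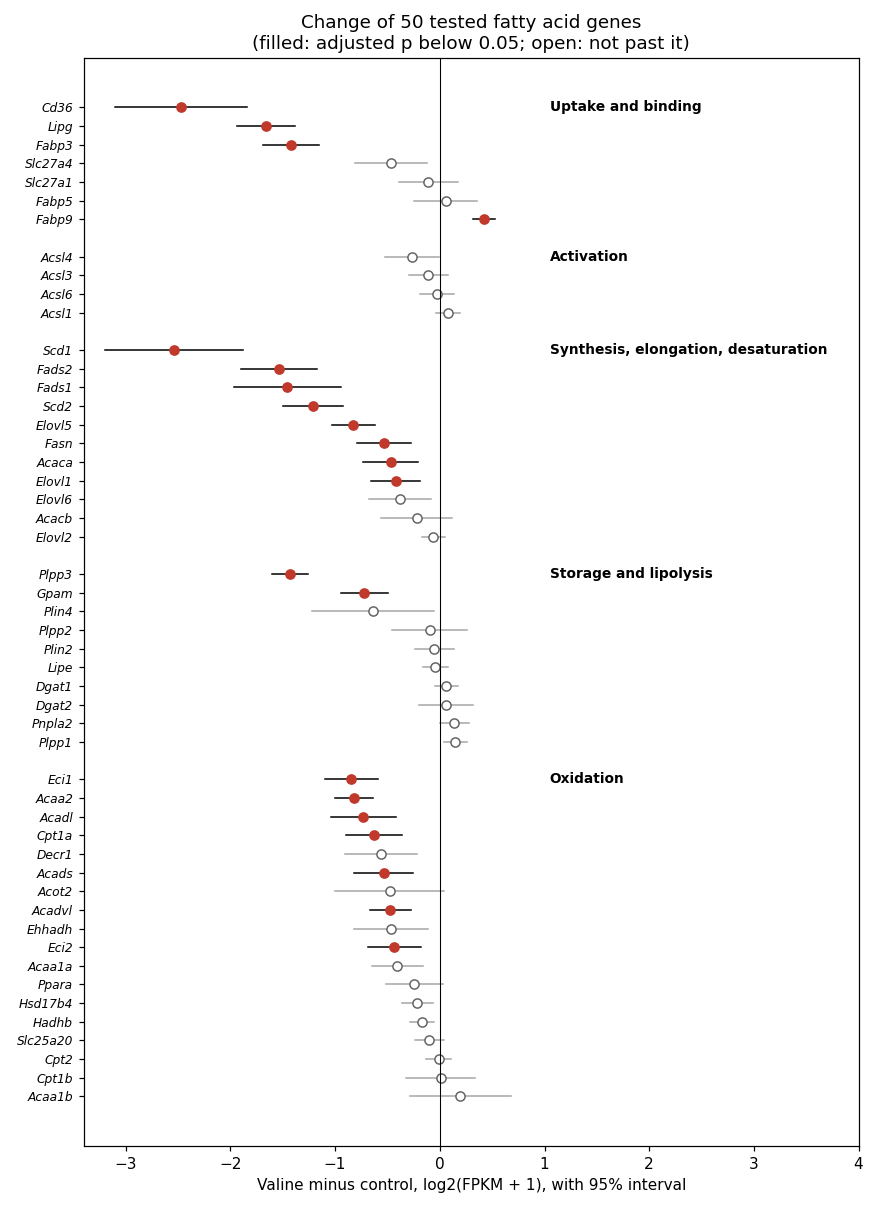
Change of the 50 tested fatty acid genes, valine minus control, on the log2(FPKM + 1) scale (horizontal axis), with the 95% interval of the fit, by step. Filled points passed an adjusted p of 0.05; Scd1 and Cd36 lie farthest to the left at -2.54 and -2.47, and Fabp9 is the one filled point right of 0.

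In uptake, 3 of 7 tested genes fell and 1 rose. Lists of 4 values here and below run over replicates 1 to 4. Cd36, the membrane receptor for long-chain fatty acids and oxidised lipoproteins, had 2.06, 2.81, 1.501 and 3.02 FPKM in valine testes, against 25.0, 18.5, 19.8 and 9.50 FPKM in control testes. The groups did not overlap, and control replicate 4 was the lowest of its group. The log2 change of Cd36 was -2.47 ± 0.278 (SE; limma adjusted p = 0.00358). Lipg, endothelial lipase, which cuts phospholipids of lipoproteins, had 2.30, 1.90, 2.15 and 1.95 FPKM in valine testes, against 7.57, 9.91, 10.2 and 7.49 FPKM in control testes (log2 change -1.66 ± 0.122, limma adjusted p = 0.00116). Its valine values lay within a narrow span, all far below the lowest control value.

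Among the binding proteins, Fabp3, the heart-type form, had 104, 104, 80.2 and 93.2 FPKM in valine testes, against 210, 293, 266 and 261 FPKM in control testes. The groups did not overlap, and the log2 change was -1.42 ± 0.118 (limma adjusted p = 0.00126). Fabp9, the sperm form found in the perforatorium of the sperm head, moved the other way. It had 1128, 1101, 1134 and 1186 FPKM in valine testes, against 806, 832, 869 and 896 FPKM in control testes, and every valine sample was above every control sample (log2 change 0.42 ± 0.0455, limma adjusted p = 0.00333). Quantile normalisation reduced that rise to 0.22 (limma adjusted p = 0.00675). Fabp5, the epidermal form, averaged 2.98 ± 0.611 FPKM in valine and 2.79 ± 0.0475 FPKM in control testes (SD, n = 4 each) and did not pass (limma adjusted p = 0.836). Fabp3 shares 29.2% of its 50-base words with its pseudogene Fabp3-ps1, and Fabp9 shares 45.7% with the overlapping model Gm37389, which held at most 0.425 FPKM. Of the exon bases of Fabp3, 19.6% are overlapped on the opposite strand by Zcchc17, which did not pass (limma adjusted p = 0.988).

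The remaining genes of uptake did not pass. The acyl-CoA synthetase and transporter Slc27a1 averaged 20.6 ± 2.93 FPKM in valine and 22.4 ± 2.97 FPKM in control testes (limma adjusted p = 0.617, 95% interval of the log2 change -0.39 to 0.17). Slc27a4, the related transporter, had 2.93, 3.81, 2.17 and 3.04 FPKM in valine testes, against 4.05, 5.498, 4.46 and 3.92 FPKM in control testes; the groups did not overlap, yet the adjusted p was 0.0937 (limma). Lpl, lipoprotein lipase, had 0.330, 0.160, 0.213 and 0.116 FPKM in valine testes, against 2.67, 0.157, 0.382 and 0.305 FPKM in control testes. Only control replicate 1 stood above 1 FPKM for Lpl, and the other control samples lay among or just above the valine samples.

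Control replicate 1 also stood apart in some fat cell transcripts. Cfd, the adipocyte protease adipsin, was at 29.8 FPKM in that sample and at 0.325 to 1.77 FPKM in the other control samples. In valine testes Cfd was at most 0.152 FPKM. Car3, a carbonic anhydrase of fat and muscle, was at 14.6 FPKM there and at 0.261 to 1.65 FPKM in the other control samples. In valine testes Car3 was at most 0.196 FPKM. For Cfd, Car3 and Plin1 every valine sample lay below every control sample, while Adipoq, Adig, Lep, Retn and Cidec overlapped. Of the 8 adipocyte markers, 6 were tested and 1 fell (Plin1), none was at 0 in all samples, and their summed level was 83.5 to 124 FPKM in valine and 92.4 to 142 FPKM in control testes, most of it from Adig and Adipoq. Those 2 did not stand apart in control replicate 1, at 56.3 FPKM for Adig and 30.9 FPKM for Adipoq. Across all samples they were at no less than 50.5 and 27.2 FPKM. Plin1 was highest in control replicate 3. Cidec, Retn and Lep were highest in control replicate 1, at 3.93, 3.38 and 0.466 FPKM. In the other control samples Cidec was at 0.161 to 0.877 FPKM and Retn at 0.928 to 2.34 FPKM. In valine testes Cidec and Retn were at most 0.708 and 1.91 FPKM. Crisp1, a marker of the epididymis, was at 5.06 FPKM in control replicate 1. It was at most 0.191 FPKM in valine and 0.282 FPKM in the other control samples. Of the 6 epididymal markers 5 were under the filter and none passed, and their sums overlapped, at 4.37 to 9.48 FPKM in valine and 2.68 to 11.9 FPKM in control testes. Outside control replicate 1, most of each sum came from Rnase10, at 3.44 to 9.25 FPKM in valine and 1.89 to 9.34 FPKM in control testes. The sums thus say little about Crisp1. The part of these transcripts in the results was not tested. Without control replicate 1 the change of Cd36 was -2.30 (limma adjusted p = 0.0150) and that of Scd1 was -2.37 (limma adjusted p = 0.0155). Among the samples left, Cfd and Car3 were still lower in every valine sample than in every control sample.

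**Figure D2:**
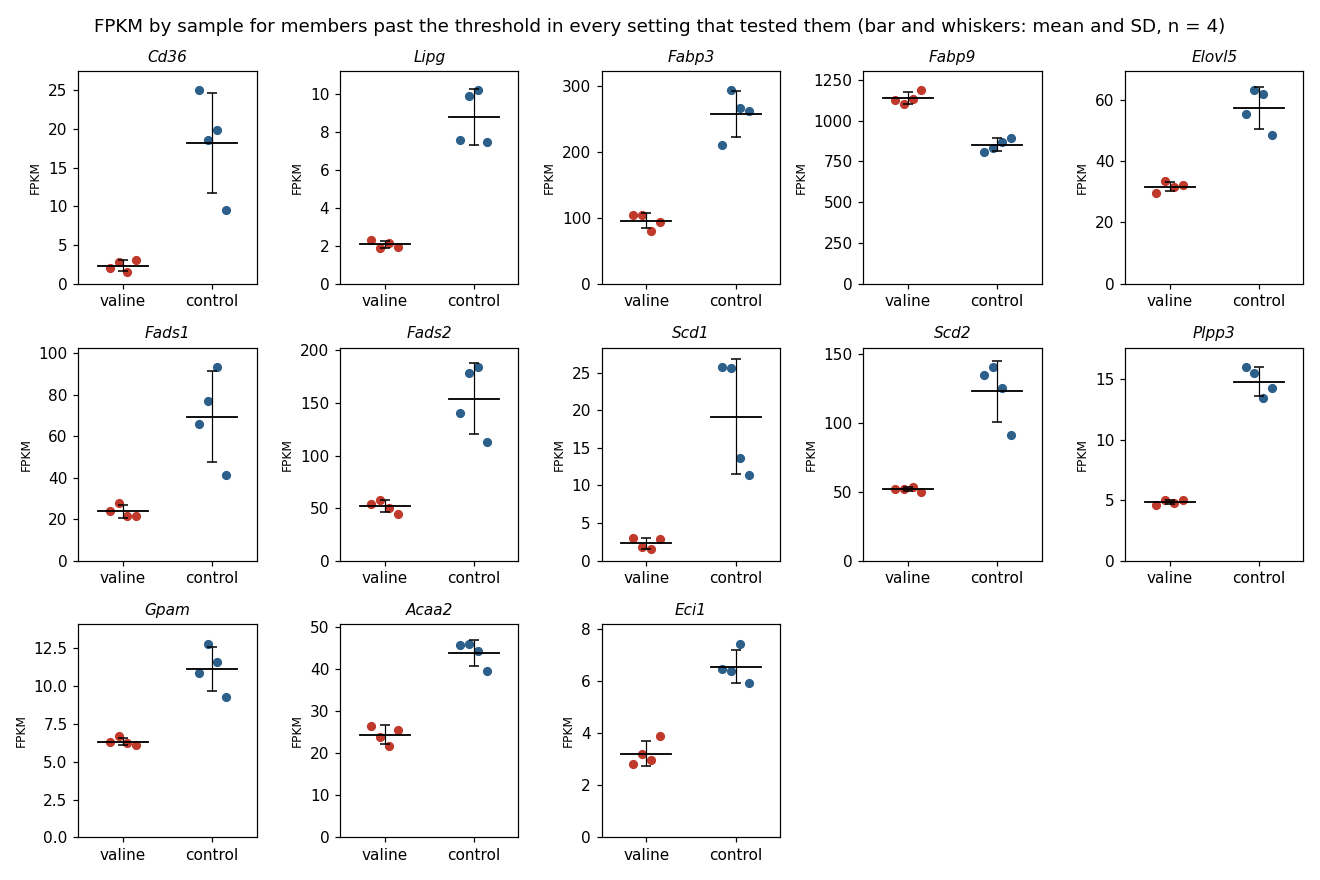
FPKM in each sample (vertical axis, from 0) for the 13 genes that passed the threshold in every alternative that tested them, valine left and control right, with mean and SD of 4 samples. The 4 valine points lie below all control points in 12 panels and above them in the panel of Fabp9 (1101 to 1186 against 806 to 896 FPKM).

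In activation, 0 of 4 acyl-CoA synthetases passed in limma, and 0 of 4 were called in any alternative. Acsl1, the most abundant, had 208, 202, 213 and 218 FPKM in valine testes, against 201, 184, 205 and 205 FPKM in control testes (limma adjusted p = 0.348), with a 95% interval of the log2 change of -0.03 to 0.19. Acsl6, a form of brain and of germ cells, averaged 24.2 ± 2.15 FPKM in valine and 24.7 ± 0.944 FPKM in control testes (limma adjusted p = 0.833). Acsl3, which sits on nascent droplets, averaged 23.7 ± 2.58 FPKM in valine and 25.6 ± 1.08 FPKM in control testes (limma adjusted p = 0.449). Acsl4, which prefers arachidonic acid, had 9.11, 7.49, 7.90 and 8.85 FPKM in valine testes, against 11.3, 11.6, 8.44 and 9.76 FPKM in control testes, with overlap between the groups. Its unadjusted p was 0.0430, the one of the 4 below 0.05, and its adjusted p was 0.179 (limma).

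The largest change of the 50 genes, that of Scd1, was in desaturation. All 4 desaturases fell, as did 2 of 4 elongases and 2 of 3 enzymes of fatty acid synthesis, so that 8 of the 11 genes of this step were lower and none higher. Scd1, stearoyl-CoA desaturase, which makes oleate and palmitoleate, had 2.99, 1.86, 1.53 and 2.94 FPKM in valine testes, against 25.8, 25.6, 13.7 and 11.4 FPKM in control testes. The control samples split into a higher pair (replicates 1 and 2) and a lower pair, and both pairs were above every valine sample. Its log2 change was -2.54 ± 0.287 (limma adjusted p = 0.00358). Scd2, the second isoform and the more abundant here, had 51.9, 52.2, 53.4 and 50.2 FPKM in valine testes, against 135, 141, 125 and 91.5 FPKM in control testes (log2 change -1.21 ± 0.124, limma adjusted p = 0.00291). The valine samples were close together, and control replicate 4 was the lowest control sample.

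Both desaturases that make polyunsaturated fatty acids fell. Fads2, the Δ6 desaturase and the first step of that route, had 54.0, 58.1, 49.97 and 44.5 FPKM in valine testes, against 141, 178, 184 and 113 FPKM in control testes (log2 change -1.54 ± 0.158, limma adjusted p = 0.00297). Fads1, the Δ5 desaturase, had 24.0, 27.99, 21.7 and 21.5 FPKM in valine testes, against 66.1, 77.0, 93.5 and 41.5 FPKM in control testes (log2 change -1.46 ± 0.223, limma adjusted p = 0.00860). In both genes the groups did not overlap, control replicate 3 was the highest sample and control replicate 4 the lowest of its group.

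Of the elongases, Elovl5 and Elovl1 fell. Elovl5, which lengthens polyunsaturated fatty acids of intermediate length, had 29.7, 33.6, 31.5 and 32.0 FPKM in valine testes, against 55.2, 63.1, 62.0 and 48.4 FPKM in control testes (log2 change -0.82 ± 0.0889, limma adjusted p = 0.00333). Elovl2, which makes the longest of them and is needed for sperm formation in mice, had 195, 181, 202 and 185 FPKM in valine testes, against 192, 197, 201 and 206 FPKM in control testes and did not pass (limma adjusted p = 0.453; 0.0468 with equal totals). The 95% interval of the log2 change was -0.17 to 0.05 for Elovl2 and -1.03 to -0.62 for Elovl5; the difference between them was not tested. Elovl1, which makes very long saturated chains, had 2.32, 2.16, 2.70 and 2.88 FPKM in valine testes, against 3.63, 3.79, 3.75 and 3.62 FPKM in control testes (limma adjusted p = 0.0393). Elovl6, which lengthens palmitate, averaged 4.29 ± 0.721 FPKM in valine and 5.88 ± 0.765 FPKM in control testes (limma adjusted p = 0.106; 0.0485 with equal totals).

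Of the enzymes that build fatty acids, Fasn, the synthase, had 16.0, 17.5, 18.4 and 15.6 FPKM in valine testes, against 28.2, 21.9, 28.4 and 21.3 FPKM in control testes (log2 change -0.53 ± 0.113, limma adjusted p = 0.0260). Acaca, the acetyl-CoA carboxylase that feeds it, had 6.89, 9.10, 9.17 and 8.16 FPKM in valine testes, against 12.3, 13.5, 10.1 and 11.7 FPKM in control testes (log2 change -0.47 ± 0.115, limma adjusted p = 0.0419). Acacb, the mitochondrial form, averaged 1.84 ± 0.181 FPKM in valine and 2.35 ± 0.592 FPKM in control testes (limma adjusted p = 0.387). The calls of Fasn, Acaca and Elovl1 were not firm: they were lost in 6 of 17, 11 of 17 and 10 of 16 alternatives, with adjusted p values up to 0.0859, 0.138 and 0.101. After removal of a length trend, Fasn had an adjusted p of 0.0859 and Acaca one of 0.138 (limma). Leaving out valine replicate 1, valine replicate 2 or control replicate 1 left 5 lower genes in this step in each case. Acaca shares 29.2% of its 50-base words with the pseudogene Gm5182.

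In storage and lipolysis, 2 of 10 genes fell and none rose. Plpp3, a lipid phosphate phosphatase of the plasma membrane, had 4.62, 5.01, 4.78 and 4.97 FPKM in valine testes, against 16.0, 15.5, 13.5 and 14.3 FPKM in control testes. Both groups were tight, and Plpp3 had the smallest adjusted p of the 50 tested genes (log2 change -1.43 ± 0.0770, limma adjusted p = 0.000807). Gpam, the mitochondrial acyltransferase that starts glycerolipid synthesis, had 6.28, 6.70, 6.21 and 6.12 FPKM in valine testes, against 10.9, 12.8, 11.6 and 9.27 FPKM in control testes (log2 change -0.72 ± 0.0983, limma adjusted p = 0.00602).

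The abundant genes of fat storage and release among these 10 did not pass. The triglyceride lipase Pnpla2 had 247, 223, 218 and 229.6 FPKM in valine testes, against 204, 199, 203 and 229 FPKM in control testes (limma adjusted p = 0.203). Lipe, hormone-sensitive lipase, which also frees cholesterol from its esters in the testis, averaged 161 ± 6.29 FPKM in valine and 166 ± 9.14 FPKM in control testes (limma adjusted p = 0.663), with an interval of the log2 change of -0.16 to 0.08. Plin2, the droplet coat found in most cells, averaged 31.6 ± 2.09 FPKM in valine and 32.8 ± 3.08 FPKM in control testes (limma adjusted p = 0.742). Dgat1 and Dgat2 add the last fatty acid of triglyceride. Dgat1 averaged 68.7 ± 1.97 FPKM in valine and 65.8 ± 2.51 FPKM in control testes, and Dgat2 averaged 197 ± 27.6 FPKM in valine and 188 ± 20.2 FPKM in control testes (limma adjusted p = 0.465 and 0.775). Plpp1, a further lipid phosphatase, averaged 123 ± 5.35 FPKM in valine and 110.5 ± 4.05 FPKM in control testes. Every valine sample was above every control sample, and the adjusted p was 0.0974 (limma). Of the exon bases of Plpp1, 25.8% are overlapped on the opposite strand by Mtrex, which did not pass (limma adjusted p = 0.0530). Plpp2, the third lipid phosphatase, averaged 2.52 ± 0.667 FPKM in valine and 2.72 ± 0.276 FPKM in control testes (limma adjusted p = 0.744). Plin4, a coat protein of fat cells, had 0.545, 0.970, 0.559 and 0.597 FPKM in valine testes, against 3.28, 0.896, 1.56 and 1.15 FPKM in control testes. It was highest in control replicate 1, the sample with the most Cfd, and did not pass with or without it (limma adjusted p = 0.159 and 0.256).

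**Figure D3:**
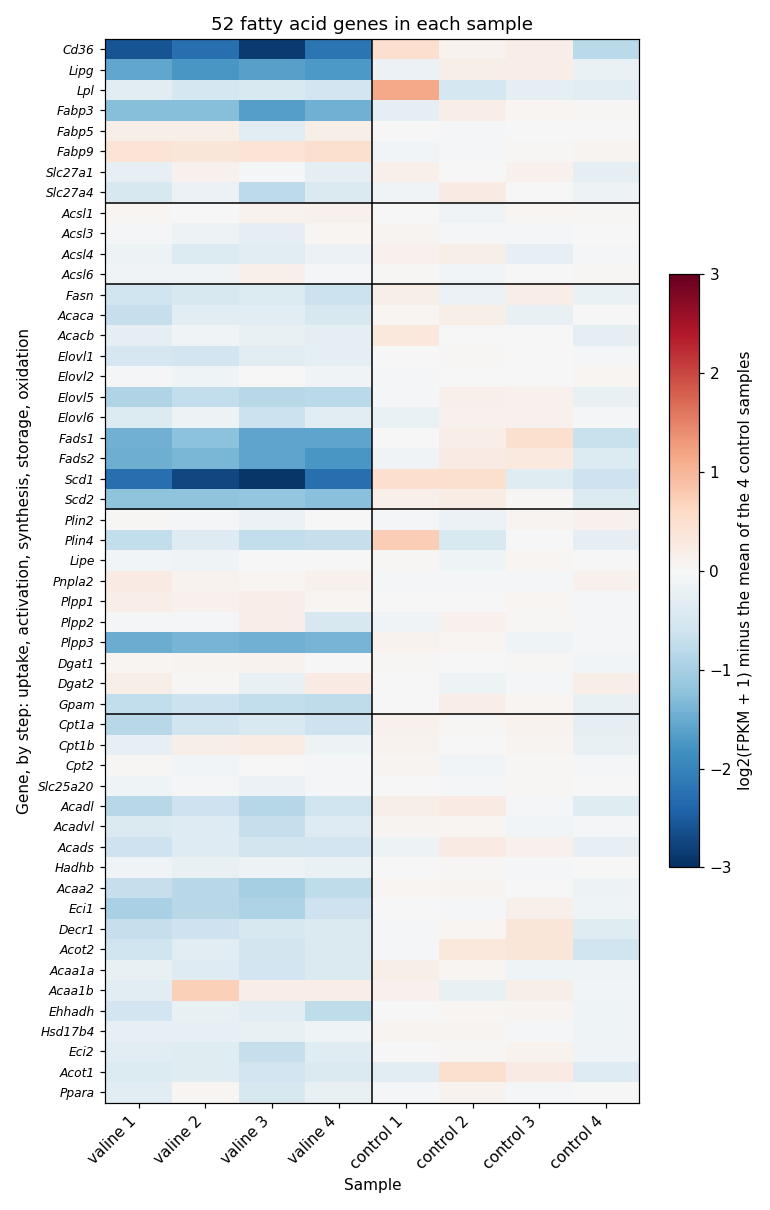
The 52 fatty acid genes (rows, by step) in each sample (columns, valine left and control right), as log2(FPKM + 1) minus the mean of the 4 control samples. Rows of the desaturases, Cd36, Lipg, Fabp3 and Plpp3 are blue in all 4 valine samples, darkest for Scd1 and Cd36. Lpl and Plin4 are highest in control replicate 1 (2.67 and 3.28 FPKM).

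In oxidation, 7 of 18 tested genes fell and none rose, with log2 changes of -0.43 to -0.84 where the 4 desaturases had -1.21 to -2.54. The carnitine shuttle moves fatty acids into mitochondria, and 1 of its 4 genes fell. Cpt1a, the liver form of the rate-setting transferase, had 8.06, 9.68, 10.9 and 9.48 FPKM in valine testes, against 16.8, 15.6, 16.4 and 12.4 FPKM in control testes (log2 change -0.63 ± 0.117, limma adjusted p = 0.0169; 0.0538 without control replicate 1). Cpt1b, the muscle form, averaged 2.93 ± 0.639 FPKM in valine and 2.89 ± 0.385 FPKM in control testes (limma adjusted p = 0.983); 81.4% of its exon bases are shared with the overlapping model Gm44502, which was listed at 0 in all samples. Cpt2, the inner transferase, had 61.6, 56.9, 60.7 and 58.2 FPKM in valine testes, against 63.2, 56.8, 61.2 and 58.0 FPKM in control testes (limma adjusted p = 0.928, interval -0.13 to 0.11). Slc25a20, the carnitine-acylcarnitine carrier, averaged 12.7 ± 0.50 FPKM in valine and 13.7 ± 0.345 FPKM in control testes (limma adjusted p = 0.340).

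Of 7 genes of mitochondrial β-oxidation, 5 fell, and for all 7 the valine samples lay below the control samples without overlap. Acaa2, the mitochondrial thiolase, had 26.5, 23.9, 21.6 and 25.6 FPKM in valine testes, against 45.6, 45.9, 44.1 and 39.4 FPKM in control testes (log2 change -0.82 ± 0.0800, limma adjusted p = 0.00243). Eci1, an isomerase needed for unsaturated chains, had 2.83, 3.23, 2.97 and 3.89 FPKM in valine testes, against 6.49, 6.41, 7.45 and 5.95 FPKM in control testes (log2 change -0.84 ± 0.109, limma adjusted p = 0.00516). These were the most firmly separated of the oxidation genes.

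The acyl-CoA dehydrogenases, which take the first step of each cycle on chains of different length, fell as well. Acadl, the long-chain form, had 15.3, 18.1, 15.1 and 18.2 FPKM in valine testes, against 31.8, 33.7, 27.0 and 21.9 FPKM in control testes (log2 change -0.73 ± 0.136, limma adjusted p = 0.0168; 0.0521 without valine replicate 1 and 0.0523 without control replicate 1). Acadvl, the very-long-chain form, had 12.9, 13.5, 10.7 and 13.4 FPKM in valine testes, against 19.0, 18.5, 16.8 and 17.3 FPKM in control testes (log2 change -0.47 ± 0.0862, limma adjusted p = 0.0157; 0.0512 without control replicate 1). Acads, the short-chain form, had 7.23, 8.83, 7.65 and 7.58 FPKM in valine testes, against 10.5, 14.3, 13.1 and 9.80 FPKM in control testes (log2 change -0.54 ± 0.124, limma adjusted p = 0.0342). The call of Acads was lost in 8 of 17 alternatives, with adjusted p values up to 0.0924. Of the exon bases of Acadvl, 42.9% are overlapped by Dvl2 on the opposite strand, and no source used here gives the strand setting of the counting, so reads of the pair cannot be told apart there; Dvl2 itself did not pass (limma adjusted p = 0.839).

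Decr1 and Hadhb were the 2 of the 7 that did not pass. Decr1, the dienoyl-CoA reductase, had 3.92, 4.19, 4.71 and 4.92 FPKM in valine testes, against 6.79, 7.30, 9.24 and 5.22 FPKM in control testes (limma adjusted p = 0.0555; 0.0246 without control replicate 4 and 0.0304 with equal totals). Hadhb, the thiolase subunit of the trifunctional protein, averaged 33.1 ± 1.29 FPKM in valine and 37.4 ± 0.847 FPKM in control testes (limma adjusted p = 0.0674; 0.0137 with equal totals). Its log2 change of -0.17 ± 0.0497 was the smallest of the 7. Hadhb shares 18.1% of its 50-base words with Gm13910, which was at 36.6 to 44.8 FPKM and did not pass (limma adjusted p = 0.197). The split of reads between those 2 is thus uncertain.

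Peroxisomal oxidation had 1 call among 5 genes. Eci2, an isomerase of peroxisomes and mitochondria, had 3.70, 3.59, 2.66 and 3.57 FPKM in valine testes, against 4.85, 5.0, 5.29 and 4.45 FPKM in control testes (log2 change -0.43 ± 0.110, limma adjusted p = 0.0460), and the call was lost in 12 of 16 alternatives, with adjusted p values up to 0.113. Acaa1a, the peroxisomal thiolase, averaged 5.75 ± 0.707 FPKM in valine and 7.94 ± 0.857 FPKM in control testes (limma adjusted p = 0.0524; 0.0259 with equal totals). Hsd17b4, the D-bifunctional protein, averaged 30.4 ± 1.22 FPKM in valine and 35.6 ± 2.51 FPKM in control testes (limma adjusted p = 0.0750; 0.0193 with equal totals and 0.0466 without control replicate 4). Ehhadh, the L-bifunctional protein, averaged 1.02 ± 0.335 FPKM in valine and 1.77 ± 0.182 FPKM in control testes (limma adjusted p = 0.101). For these last 3 genes, too, the groups did not overlap. Acaa1b, the second thiolase, averaged 3.66 ± 1.35 FPKM in valine and 2.97 ± 0.517 FPKM in control testes, and its valine samples ranged from 2.15 to 5.42 FPKM (limma adjusted p = 0.608).

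The thioesterases and the regulator completed the step without a call. Acot2, the mitochondrial thioesterase, had 0.548, 0.893, 0.598 and 0.740 FPKM in valine testes, against 1.25, 1.91, 2.02 and 0.546 FPKM in control testes (limma adjusted p = 0.233). Acot1, the cytosolic form, had 0.538, 0.572, 0.369 and 0.518 FPKM in valine testes, against 0.632, 1.83, 1.40 and 0.544 FPKM in control testes. For both, control replicates 2 and 3 were high and control replicate 4 lay at the valine level. Ppara, the nuclear receptor that drives many oxidation genes in liver, averaged 5.18 ± 0.987 FPKM in valine and 6.25 ± 0.339 FPKM in control testes (limma adjusted p = 0.248, interval of the log2 change -0.51 to 0.03). Acot2 shares 24.6% of its 50-base words with Acot1, and Acaa1b shares 30.5% with Acaa1a, so the split of reads within each pair is uncertain. The count for the oxidation step moved most of the 5: it was 11 with equal totals, 2 without control replicate 1 and 4 without valine replicate 1.

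Among these genes, calls differed in number with level. Of 9 genes that averaged 100 FPKM or more across samples, 2 fell (Fabp3 and Fads2) and 1 rose (Fabp9), and their median log2 change was 0.06. Among the 20 genes with a mean of 10 to 100 FPKM, 11 fell, with a median of -0.47. Of the 23 genes below 10 FPKM, 21 were tested and 7 fell, with a median of -0.43. Shares among all tested genes at these levels were not counted. Whether this difference is particular to the fatty acid genes was thus not tested.

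**Figure D4:**
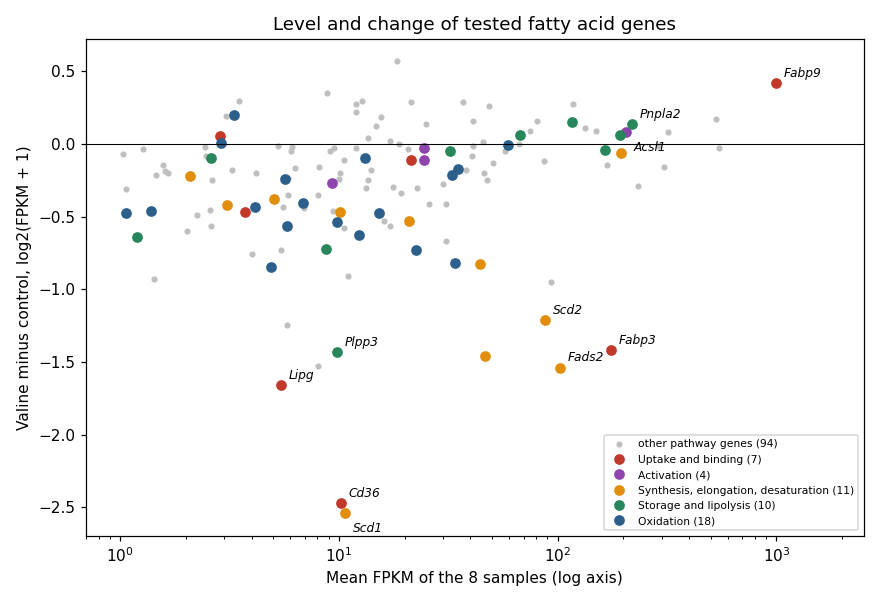
Change of the tested fatty acid genes, valine minus control on the log2(FPKM + 1) scale (vertical axis), against mean FPKM of the 8 samples (horizontal log axis), coloured by step, with 94 other tested genes of the pathway in grey. Above 100 FPKM, Fabp3 and Fads2 lie far below 0 (-1.42 and -1.54), Fabp9 lies at 0.42, and the other 6 coloured points lie near 0.

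A ratio of 2 genes within a sample largely cancels the scaling of that sample. For 11 pairs, the log2 ratio of FPKM + 1 was compared between groups by a two-sided exact permutation test over 70 arrangements, whose smallest p is 0.0286. In 4 pairs the groups did not overlap, each with an exact p of 0.0286 and an adjusted p of 0.0786 over the 11 pairs. Thus 0 of the 11 passed after adjustment and 4 had an unadjusted p below 0.05. The pairs were chosen with earlier results of these data known, and all 4 hold a gene called on its own. Their separation is therefore no further support for those calls. The ratio of Fabp3 to Fabp9 averaged -3.57 ± 0.198 in valine and -1.73 ± 0.181 in control testes. That of Scd1 to Scd2 averaged -4.02 ± 0.360 in valine and -2.69 ± 0.371 in control testes. Plpp3 to Plpp2 averaged 0.75 ± 0.313 in valine and 2.09 ± 0.158 in control testes, and Cpt1a to Cpt1b averaged 1.43 ± 0.130 in valine and 2.07 ± 0.0386 in control testes. The other 7 pairs overlapped, among them Acsl1 to Acsl6 (3.07 ± 0.102 in valine and 2.96 ± 0.0272 in control testes, exact p = 0.143) and Dgat2 to Dgat1 (1.499 ± 0.248 in valine and 1.496 ± 0.192 in control testes, exact p = 0.971). Lpl to Lipg averaged -1.35 ± 0.0442 in valine and -2.54 ± 0.909 in control testes, where control replicate 1 alone lay at the valine level (exact p = 0.143).

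**Figure D5:**
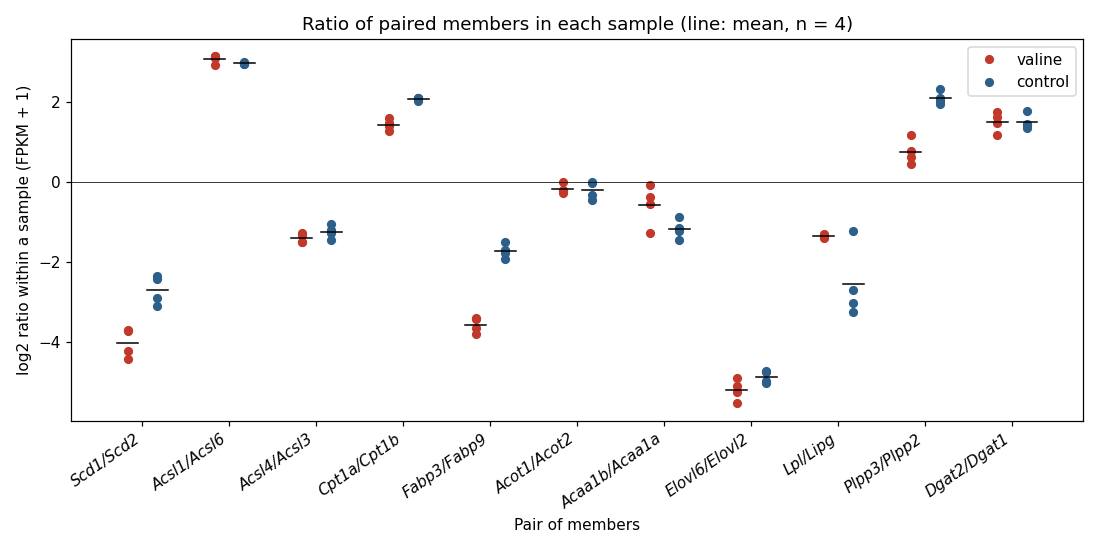
Log2 ratio of 2 fatty acid genes within each sample (vertical axis, FPKM + 1) for 11 pairs, valine left and control right in each pair, with the mean of 4 samples as a line. The valine points lie below the control points for Scd1/Scd2, Cpt1a/Cpt1b, Fabp3/Fabp9 and Plpp3/Plpp2, and the groups overlap in the other 7 pairs.

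Further genes of the same pathway were counted from a second list of 115 genes, of which 94 were tested. That list, too, was chosen with earlier results of these data known. Of these 19 fell and 4 rose, with a median log2 change of -0.14, where 4.41% of all tested genes fell and 4.32% rose; the number that rose is near that background. The falls were 11 of 38 in oxidation, 5 of 18 in synthesis and desaturation, 2 of 24 in storage, 1 of 8 in activation and 0 of 6 in uptake. Without valine replicate 1, valine replicate 2, control replicate 1 or control replicate 2 the falls numbered 7, 12, 9 and 12, and with equal totals 28 were lower and 0 higher.

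In desaturation, Fads3, which acts on sphingoid bases, had 3.61, 4.21, 3.36 and 2.75 FPKM in valine testes, against 12.2, 14.4, 17.2 and 6.29 FPKM in control testes (log2 change -1.53, limma adjusted p = 0.0129). Fads6, a further gene of the desaturase family, averaged 3.03 ± 0.521 FPKM in valine and 8.58 ± 1.58 FPKM in control testes (log2 change -1.24, limma adjusted p = 0.00426). For both, every valine sample lay below every control sample. Acly, which makes cytosolic acetyl-CoA from citrate, averaged 23.6 ± 0.402 FPKM in valine and 38.3 ± 5.12 FPKM in control testes (log2 change -0.67, limma adjusted p = 0.00694). Me1, malic enzyme, a source of NADPH, averaged 210 ± 2.17 FPKM in valine and 257 ± 19.1 FPKM in control testes (log2 change -0.29, limma adjusted p = 0.0176). Hsd17b12, the reductase of the elongation cycle, had a log2 change of -0.56 (limma adjusted p = 0.0321), while that of Hacd1, a dehydratase of that cycle, was 0.57 (limma adjusted p = 0.0361).

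In activation, Acsbg1, an acyl-CoA synthetase of the bubblegum family, averaged 63.3 ± 7.47 FPKM in valine and 124 ± 21.2 FPKM in control testes (log2 change -0.95, limma adjusted p = 0.00606). Its relative Acsbg2, a testis and brain-stem form, averaged 287 ± 28.2 FPKM in valine and 289 ± 16.1 FPKM in control testes (limma adjusted p = 0.930). In oxidation, Acadm, the medium-chain dehydrogenase, averaged 7.26 ± 0.655 FPKM in valine and 14.8 ± 3.46 FPKM in control testes (log2 change -0.91, limma adjusted p = 0.0111). Amacr, the racemase for branched chains, fell by 0.76 (limma adjusted p = 0.0419), although its groups overlapped. Echs1, Acadsb and Hadh fell by 0.73, 0.58 and 0.53 (limma adjusted p = 0.0172, 0.0160 and 0.0211). The carnitine acetyltransferase Crat, at 544 ± 26.1 FPKM in valine and 555 ± 30.5 FPKM in control testes, did not pass (limma adjusted p = 0.772).

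Of the 4 further genes that rose, Fabp12, a binding protein of the testis, averaged 53.0 ± 1.41 FPKM in valine and 44.1 ± 2.60 FPKM in control testes (limma adjusted p = 0.0264). Agpat2, a lysophosphatidic acid acyltransferase, averaged 130 ± 10.2 FPKM in valine and 107 ± 7.26 FPKM in control testes (limma adjusted p = 0.0479). Hilpda, which inhibits the lipase PNPLA2, averaged 40.6 ± 1.58 FPKM in valine and 33.1 ± 0.737 FPKM in control testes (limma adjusted p = 0.0129). None of the 4 was called with equal totals. Plin1 and Fitm2, both proteins of droplets, fell by 0.93 and 0.44 (limma adjusted p = 0.0314 and 0.0141).

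Markers of several cell types moved in the same samples. Of 8 Leydig markers 8 fell, with a median of -1.91, and their summed level was 474 to 766 FPKM in valine and 1601 to 2269 FPKM in control testes. Macrophage markers fell in 3 of 6 tested (sum 34.7 to 42.9 FPKM in valine and 71.3 to 91.4 FPKM in control testes), endothelial markers in 3 of 5 (9.79 to 11.1 FPKM in valine and 17.01 to 21.2 FPKM in control testes) and peritubular myoid markers in 2 of 5 (29.4 to 40.1 FPKM in valine and 53.9 to 70.6 FPKM in control testes). None of the 8 Sertoli markers passed, and their sums overlapped, at 320 to 351 FPKM in valine and 318 to 355 FPKM in control testes. All 5 markers of elongating spermatids rose, with sums of 46070 to 57305 FPKM in valine and 34934 to 37660 FPKM in control testes, in the same samples in which Fabp9 was high. Sums of round spermatid markers were 1048 to 1236 FPKM in valine and 956 to 1127 FPKM in control testes, where 1 of 5 rose. Of 5 spermatogonial markers 2 fell, Zbtb16 by 0.89 and Kit by 0.95 on the log2 scale (adjusted p = 0.0123 and 0.00933 in limma). Gfra1 and Dmrt1 went the other way, with log2 changes of 0.23 and 0.25 and every valine sample above every control sample. Neither passed (limma adjusted p = 0.246 and 0.115), and Stra8 overlapped. The sums of the 5 overlapped, at 41.5 to 47.0 FPKM in valine and 43.4 to 51.5 FPKM in control testes. Of 5 spermatocyte markers 1 rose, Ccna1, with sums of 921 to 983 FPKM in valine and 861 to 928 FPKM in control testes. None of 5 red blood cell markers passed, and their sums overlapped. The part of these cell types in the changes of the fatty acid genes was not tested.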

How the data were processed

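Per the labels, total RNA of 8 mouse testes samples (4 valine, 4 control) was sequenced. The authors deposited FPKM per Ensembl gene; reads were aligned with HISAT2 to GRCm39, per the submitters' processing notes, and no source used here gives the quantifier, the strand setting or the annotation release. Columns were tied to samples by the group name, or its abbreviation VA, and replicate number. Symbols, exon lengths and overlaps came from GENCODE vM21 tables, which named 52081 of 55414 genes, and promoters from RefSeq; both are on the older assembly GRCm38.

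The 22077 genes whose mean reached 1 FPKM were tested as log2(FPKM + 1) with limma 3.58.1 in R 4.3.3 (treatment only, empirical Bayes with trend, two-sided, Benjamini-Hochberg at 0.05). Every one of the 52 genes may be named; of the second list, those past the threshold, up to 5 a step by size, and up to 2 others a step by level. Members, lists and pairs were chosen with earlier results of these data known, and GC and CCAAT boxes were added after the files were seen. Alternatives were a pseudocount of 0.1, other filters, scalings, moderation, array weights, a replicate block, removal of a length trend (loess span 0.3; lengths for 98.2% of tested genes) and leaving out each sample. The fit and the exact test were checked on simulated data or known answers. In simulated data with 100 genes changed by each size, the fit recovered 44% of log2 changes of 0.5 and 76% of those of 1. It made 8 false calls among 128. Real changes near 0.5 can thus go uncalled. The changed genes were drawn only from those with a control mean above 2 on the log2(FPKM + 1) scale. Far fewer genes were called there than in the data, so these rates do not carry over to the data. Relative depth came from whole-number steps of low values; precision is limited by 4 samples a group.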

Additional observations from a re-analysis of the deposited data

Results flagged for a closer look

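In a group of 4 samples, 1 value was singled out where its gap to the nearest other was above Dixon's 95% critical value for the group's range. Over 104 groups (52 genes in 2 treatments) this picked 7 values, and chance alone picks about 1 in 20 groups. The values were Fabp5 at 2.06 FPKM and Eci2 at 2.66 FPKM, both lowest in valine replicate 3, and Plin4 at 0.970 FPKM, highest in valine replicate 2. In control testes they were Lpl at 2.67 FPKM and Acsl3 at 27.2 FPKM in replicate 1, Ppara at 6.75 FPKM in replicate 2 and Pnpla2 at 229 FPKM in replicate 4. The value of Lpl stood in the sample with the highest Cfd and Car3.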

How the results depend on the processing

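Of the 21 fatty acid genes past the threshold, 13 kept their call and direction in every alternative that tested them, none reversed, and 8 lost the call at least once, 3 of them only when a sample was left out. Leaving out 1 sample gave 12 to 19 lower and 1 higher among the fatty acid genes, 461 to 802 lower and 381 to 795 higher among all tested genes, and 7 to 19 lower and 1 to 4 higher in the second list. With equal totals all tested genes had 2022 lower and 363 higher, and the second list 0 higher. Numbers of higher genes also changed without a filter (568 of all tested, 2 of the second list), with quantile normalisation (398 and 2) and without the trend in moderation (503 and 1). Same-numbered samples correlated in their deviations from group means by -0.02, -0.04, 0.10 and 0.11, so the numbers were not taken to pair samples. With the replicate block, 17 fatty acid genes were lower, 489 of all tested genes were lower and 581 higher, and the second list had 7 lower and 3 higher. The causes of these shifts were not tested. For the 11 pair ratios the smallest possible exact p leaves adjusted values little room to pass, so their alternatives say nothing about stability. The absolute depth is unknown, so no counting error was given for genes near 1 FPKM, such as Lpl, Acot1, Acot2, Plin4 and Ehhadh.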

Other observations

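Fads1, Fads2, Fads3, Scd1 and Scd2, all lower in valine testes, lie in 2 groups of neighbouring genes on mouse chromosome 19; Fads6, which also fell, is on chromosome 11. In the RefSeq gene order, Fads3, Fads2 and Fads1 are consecutive protein-coding genes, with log2 changes of -1.53, -1.54 and -1.46. Of the protein-coding genes on either side, Rab3il1 changed by 0.08 and Fen1 by 0.03 (limma adjusted p = 0.727 and 0.930), and Best1, one gene further, by 0.06 (limma adjusted p = 0.746). Tmem258, next to Fen1, rose by 0.36 (limma adjusted p = 0.0129). Scd3, Scd2, Scd4 and Scd1 are consecutive protein-coding genes on the same chromosome. Scd3 had 3.05, 4.02, 3.55 and 5.26 FPKM in valine testes, against 3.23, 2.28, 4.25 and 2.55 FPKM in control testes (limma adjusted p = 0.372), and Scd4 was at most 0.556 FPKM in any sample. These neighbours were chosen after values of Fads1, Fads2, Scd1 and Scd2 were seen.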
